A study of Mus musculus with 6 samples.

Results

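The RNA of 10 genes of the Wnt/β-catenin pathway was examined in Hepa 1-6 cells, a mouse hepatoma line, treated with vehicle (3 libraries) or with Shh, the secreted ligand Sonic hedgehog (3 libraries). The genes were chosen by symbol and comprised β-catenin (Ctnnb1), the scaffolds that destroy it (Apc, Axin1) and targets or feedback regulators known from hepatocytes and liver tumors (Axin2, Lgr5, Glul, Tbx3, Nkd1, Rnf43, Znrf3). All 10 had a row among the 18169 genes of the deposited table, and all 10 passed the expression filter that left 12286 genes for testing. The labels give both groups the same cell line and no genotype, and the dose, the duration and the origin of the libraries from separate cultures were not stated for the sequencing, so that p-values measure the spread between these libraries, which may be technical. A cell line holds no neighbouring liver cells that could signal to it, and the RNA of a culture cannot separate fewer expressing cells from less RNA per cell.

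In the absence of Wnt, β-catenin in the cytosol is held by the scaffolds Apc and Axin, phosphorylated by the kinases Ck1 and Gsk3, and degraded. Wnt ligands bound to Frizzled and Lrp5/6 receptors halt this destruction, and β-catenin then enters the nucleus and works with TCF/LEF factors at target genes. In the liver this signal is strongest around the central vein, where it maintains glutamine synthesis and other pericentral functions, and mutations of Ctnnb1, Apc or Axin1 occur in liver tumors. Much of the control of β-catenin is exerted on the protein, which RNA-seq does not measure.

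The start-site sequences of a component and of both kinds of target are given because the results below set these genes side by side. RefSeq windows (build GRCm38.p6, plus strand) were found for 5 of the 10 genes, namely Axin2, Ctnnb1, Glul, Nkd1 and Rnf43. Ctnnb1 and Rnf43 have 2 windows each, of which the first is shown. The 250 bases before the start of Ctnnb1 (chr9:120933150-120933399), of Glul, the pericentral target (chr1:153899679-153899928), and of Rnf43, the feedback target (chr11:87662837-87663086), read 5′ to 3′ as follows, with CpG dinucleotides in capitals.
Ctnnb1: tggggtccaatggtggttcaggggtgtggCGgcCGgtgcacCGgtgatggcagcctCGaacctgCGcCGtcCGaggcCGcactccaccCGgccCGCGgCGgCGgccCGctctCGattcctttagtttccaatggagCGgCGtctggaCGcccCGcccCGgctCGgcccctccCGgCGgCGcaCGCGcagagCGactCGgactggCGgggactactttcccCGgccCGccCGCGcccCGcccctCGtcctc
Glul: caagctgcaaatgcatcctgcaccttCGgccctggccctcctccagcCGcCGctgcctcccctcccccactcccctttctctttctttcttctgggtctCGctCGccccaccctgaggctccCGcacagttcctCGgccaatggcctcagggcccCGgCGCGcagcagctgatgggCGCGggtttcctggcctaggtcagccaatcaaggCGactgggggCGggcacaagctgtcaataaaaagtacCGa
Rnf43: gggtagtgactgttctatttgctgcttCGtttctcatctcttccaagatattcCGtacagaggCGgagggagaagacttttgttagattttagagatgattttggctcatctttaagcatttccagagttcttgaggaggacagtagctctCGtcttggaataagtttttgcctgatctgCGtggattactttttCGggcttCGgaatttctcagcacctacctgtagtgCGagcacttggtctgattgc
The Ctnnb1 window held 35 CpGs at a GC content of 74.8%, the Glul window 15 at 64.8% and the Rnf43 window 8 at 44.4%, against a median of 6 CpGs and 52.4% GC over all 32851 windows. The second window of Ctnnb1 held 43 CpGs and that of Rnf43 only 2, so that the 2 windows of Rnf43 lay on either side of the median CpG count. In GC content both Rnf43 windows (44.4% and 45.2%) were below the median. The TCF/LEF core CTTTGA (reverse strand TCAAAG) was in 16.0% of all windows of 250 bases before and 50 after the start, and the GLI motif TGGGTGGTC (reverse strand GACCACCCA), read by the factors downstream of Shh, was in 0.253%. None of the 7 windows of the 5 genes held either run of letters, which says only that these letters were not in these windows.

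The 10 Wnt/β-catenin genes were expressed in both groups and their levels spanned a wide range, with Rnf43, Znrf3 and Apc below the middle of the genes tested. On the deposited scale of FPKM (fragment counts scaled to transcript length and library size, which allows levels of different genes to be compared), Ctnnb1 was highest at 141 on average over the 6 libraries, above 94.8% of the genes tested. Glul, which encodes glutamine synthetase, followed at 91.0 FPKM, above 91.4% of genes. Axin2, a scaffold that is itself induced by β-catenin, stood at 34.3 FPKM, and its constitutive relative Axin1 at 23.2 FPKM. The Dishevelled-binding inhibitor Nkd1 was at 17.1 FPKM, the transcription factor Tbx3 at 13.6 FPKM and the R-spondin receptor Lgr5 at 12.5 FPKM. Levels were lowest for the ubiquitin ligases that remove Frizzled from the membrane, Rnf43 at 9.76 FPKM and Znrf3 at 6.73 FPKM, and for Apc at 6.08 FPKM, above 39.1% of genes. The lowest and highest libraries of neighbours in this order overlapped only for Tbx3 (12.5 to 15.6 FPKM) with Lgr5 (11.5 to 14.1 FPKM), and for Znrf3 (6.38 to 7.80 FPKM) with Apc (5.64 to 7.15 FPKM).

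**Figure D1:**
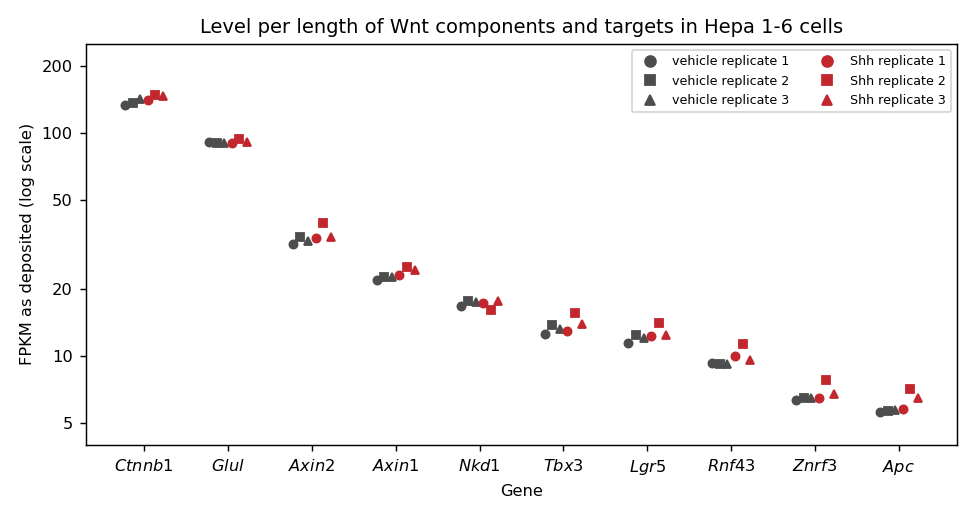
FPKM of the 10 genes (log axis) in each of the 3 vehicle (grey) and 3 Shh (red) libraries, ordered by the mean over all 6. Ctnnb1 lies between 134 and 148 and Apc between 5.64 and 7.15, and the spread within a gene is small beside the steps between most neighbours.

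The cell line carried liver markers beside this pathway. Summed over the 10 hepatocyte markers, vehicle libraries held 943 to 960 FPKM and Shh libraries 917 to 959 FPKM, with Alb at 494 FPKM, and 8 of the 10 markers were above 1 FPKM in every library, whereas Ttr (0.49 FPKM) and Serpina1a (0.03 FPKM), both chosen for mention after their values were seen, were near 0. The fetal marker Afp was at 191 FPKM, and its list summed to 191 to 197 FPKM with vehicle and 188 to 196 FPKM with Shh. Cholangiocyte markers summed to 458 to 480 FPKM with vehicle and 453 to 487 FPKM with Shh, mostly Spp1 (359 FPKM) and Krt7 (99.1 FPKM). Stellate cell and fibroblast markers summed to 500 to 526 FPKM with vehicle and 504 to 552 FPKM with Shh, of which Dcn gave 511 FPKM. Above 1 FPKM in every library were 2 of 5 fetal markers (4 had a row) and 4 of 5 cholangiocyte markers. The same held for only 3 of 8 stellate cell and fibroblast markers, so the fetal and stellate sums were mostly Afp and Dcn. Macrophage markers (14.3 to 15.5 against 11.8 to 19.1 FPKM) and endothelial markers (0.45 to 0.72 against 0.37 to 0.84 FPKM) were low. These summed ranges overlapped between the groups for each of the 6 lists, and no marker in the table was at 0 in all libraries. Within the lists, the iron carrier Trf (250.2 FPKM) was at 600, 592 and 588 CPM with vehicle and at 570, 535 and 545 CPM with Shh, with no overlap (log2 fold change -0.11, unadjusted p 0.0171, adjusted p = 0.469 in edgeR). Of the 8 tested hepatocyte markers, 1, Trf, had every Shh library below every vehicle library (8.67% of all genes). Another 1 had every Shh library above (6.79% of all genes). Fold changes were below 0 for 6 of 8 tested hepatocyte markers and 4 of 4 tested cholangiocyte markers. Their medians were -0.051 and -0.050, and -0.019 and -0.011 with the length term. Acta2 of the stellate list was at 9.36 CPM in Shh replicate 1 against 3.39 to 7.37 CPM in the other 5 libraries, and Lyz2 of the macrophage list at 5.00 against 1.32 to 2.84 CPM, so that Shh replicate 1 was the highest library for both. The part of these markers in the results on Wnt genes was not tested.

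Whether Shh shifted the pathway was then asked by testing each gene for a difference between Shh and vehicle (edgeR quasi-likelihood test, Benjamini-Hochberg adjustment over all 12286 genes). None of the 10 genes passed an adjusted p of 0.05 (lowest 0.469 in edgeR), and the test called 0 of all genes (0%). This does not show that the genes were unaffected. The 95% interval given with each gene is for that gene alone, not adjusted for the number of genes. It reflects the spread between these libraries in the fit named. DESeq2 called 0 as well. At an unadjusted p under 0.05, edgeR held 1277 genes and DESeq2 814. On that unadjusted scale 4.83% of genes lay higher and 5.56% lower with Shh in edgeR, and of the 10 Wnt genes 1, Apc, lay higher and 0 lower. The edgeR log2 fold change was above 0 for 8 genes and below 0 for 2, Glul and Nkd1, with a median of 0.084 against 0.0028 over all genes. Total counts were alike, from 20253781 to 20335463 per library, and overlapped between the groups.

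The libraries differed in 2 ways that touch these genes. Shh replicate 2 stood apart: by a chi-square of counts per degree of freedom, its distance from the other libraries was 6.32 to 12.2. The vehicle libraries differed from each other by 1.70 to 2.33 and Shh replicate 1 from the vehicle libraries by 2.18 to 2.67. Shh replicate 3 lay between, at 2.83 to 4.91 from the vehicle libraries and 4.13 from Shh replicate 1. Fold changes also varied with transcript length. Over 5 equal groups of genes ordered by length, the median log2 fold change was -0.090 in the shortest and 0.070 in the longest, with a rank correlation of 0.54 across 11471 genes, which are not independent. Taken between single libraries and the vehicle mean, this correlation was 0.62 for Shh replicate 2, 0.36 for replicate 3 and 0.14 for replicate 1, and -0.10 to 0.14 for the vehicle libraries. Both are therefore given beside the results, and the part of length or of this library in them was not tested beyond the values stated.

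Ctnnb1, the pathway's central effector, was at 474, 481 and 498 CPM (counts scaled to library size with TMM factors) in the vehicle libraries and at 496, 507 and 511 CPM in the Shh libraries. Shh replicate 1 lay just under vehicle replicate 3, so the groups overlapped, although the other 2 Shh libraries were the highest of the 6. Its log2 fold change was 0.060 (SE 0.039, 95% interval -0.024 to 0.14, edgeR adjusted p = 0.576).

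Apc, the large scaffold of the destruction complex, had the largest fold change of the 10. It was at 54.4, 54.7 and 55.9 CPM with vehicle, where the libraries hardly differed, and at 55.2, 67.7 and 62.8 CPM with Shh. Shh replicates 2 and 3 were above all vehicle libraries, while Shh replicate 1 lay among them. In edgeR the log2 fold change was 0.17 (SE 0.065, 95% interval 0.029 to 0.31), or 1.13-fold, with an unadjusted p of 0.0224 and an adjusted p of 0.469 by the same test (edgeR). Without Shh replicate 1 the fold change was 0.25 and the adjusted p 0.0462, at which 0.888% of genes were called higher. At an unadjusted p under 0.05 the same exclusion held Axin2, Tbx3 and Znrf3 beside Apc, where 10.7% of all genes lay higher. Without Shh replicate 2, the library that stood apart, the fold change of Apc was 0.10 and its adjusted p 0.831 in edgeR. Apc also has the longest transcript of the 10, 9611 bases, and in a fit that takes out each library's trend with length its log2 fold change was 0.081 (95% interval -0.018 to 0.18). With the same length term and without Shh replicate 1 it was 0.12, with an adjusted p of 0.277 in edgeR, so that the single call was lost.

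Axin1, the constitutive and limiting scaffold, was at 81.0, 81.2 and 80.2 CPM with vehicle and at 81.9, 85.1 and 86.1 CPM with Shh. The groups did not overlap, the Shh libraries being higher as for 6.79% of all genes tested, but Shh replicate 1 only by less than 1 CPM. The difference on the log2 scale was 0.062 (SE 0.043, 95% interval -0.031 to 0.15, edgeR adjusted p = 0.602).

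Among the feedback genes, Axin2, the most widely used readout of β-catenin activity, was at 132, 140 and 135 CPM with vehicle and at 139, 157 and 139 CPM with Shh. Only Shh replicate 2 was above vehicle replicate 2, and the other 2 Shh libraries lay within the vehicle range. This gave a log2 fold change of 0.093 (SE 0.053, 95% interval -0.021 to 0.21, edgeR adjusted p = 0.532), and it was 0.031 without Shh replicate 2.

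Rnf43 was at 39.2, 38.7 and 37.5 CPM with vehicle and at 40.5, 44.6 and 39.4 CPM with Shh. It was, beside Axin1, the other gene of the 10 whose groups did not overlap, although Shh replicate 3 and vehicle replicate 1 were nearly level. Over all genes tested, 6.79% had every Shh library above every vehicle library. For Rnf43 the log2 fold change was 0.11 (SE 0.057, 95% interval -0.015 to 0.23, edgeR adjusted p = 0.504), and 0.053 without Shh replicate 2. Its relative Znrf3 was at 43.3, 44.4 and 44.7 CPM with vehicle and at 44.0, 51.7 and 45.6 CPM with Shh. Shh replicate 2 was alone well above the rest, and the groups overlapped. The log2 fold change of Znrf3 was 0.093 (SE 0.061, 95% interval -0.039 to 0.22, edgeR adjusted p = 0.580), and 0.020 without Shh replicate 2.

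Nkd1, by contrast, was low in a single Shh library. It was at 43.3, 45.7 and 45.1 CPM with vehicle and at 44.8, 39.8 and 45.1 CPM with Shh. Shh replicate 2 was the lowest of all 6 libraries, and the other 2 Shh libraries lay within the vehicle range. Its log2 fold change was -0.048 (SE 0.057, 95% interval -0.17 to 0.076, edgeR adjusted p = 0.779), and 0.0087 without Shh replicate 2.

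The targets that mark pericentral or progenitor-like liver cells had fold changes within the same range. Glul, whose protein makes glutamine from ammonia in the last hepatocytes before the central vein, was at 255, 251 and 250 CPM with vehicle and at 248, 253 and 250 CPM with Shh. The 6 libraries were nearly level, and the groups overlapped. The log2 fold change was -0.0082 (SE 0.037, edgeR adjusted p = 0.949), with a fold interval of 0.941 to 1.05, the narrowest in log2 terms of the 10.

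Lgr5, which amplifies Wnt signals through R-spondins, was at 54.2, 58.4 and 56.6 CPM with vehicle and at 57.5, 64.3 and 57.7 CPM with Shh. Tbx3, a repressor known from liver progenitors, was at 58.9, 64.6 and 62.0 CPM with vehicle and at 60.6, 70.8 and 65.0 CPM with Shh. In both genes Shh replicate 2 was the highest library and vehicle replicate 1 the lowest, and the groups overlapped. Log2 fold changes were 0.085 for Lgr5 (SE 0.056, 95% interval -0.036 to 0.21, edgeR adjusted p = 0.581) and 0.083 for Tbx3 (SE 0.060, 95% interval -0.048 to 0.21, edgeR adjusted p = 0.624). Without Shh replicate 2 they were 0.029 and 0.022.

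**Figure D2:**
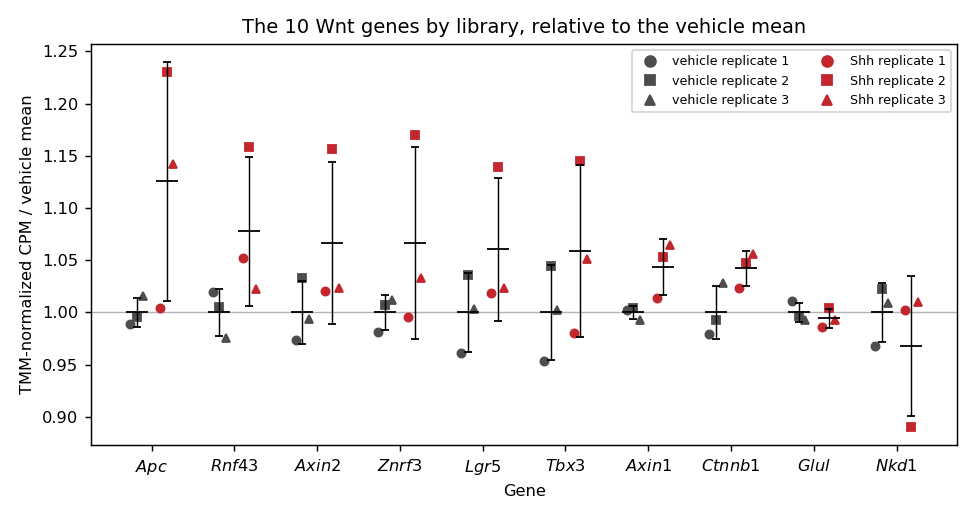
TMM-normalized CPM of each gene in each library, divided by the vehicle mean of that gene; horizontal ticks are group means and bars are ± SD (n = 3 libraries). Shh replicate 2 (red squares) is the highest library for 6 genes and the lowest for Nkd1. Only for Axin1 and Rnf43 do all red symbols lie above all grey ones, as for 6.79% of all genes tested.

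Set against the vehicle mean, the 10 genes had a median log2 ratio of 0.19 in Shh replicate 2, against 0.013 for replicate 1 and 0.040 for replicate 3, and -0.028 to 0.0083 in the vehicle libraries. Shh replicate 2 was the highest of the 6 libraries for 6 genes (Apc, Axin2, Lgr5, Rnf43, Tbx3 and Znrf3) and Shh replicate 3 for 2 (Axin1 and Ctnnb1). Left without Shh replicate 2, the median fold change of the 10 genes was 0.030, and without Shh replicate 1 it was 0.12.

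The 2 genes below 0 had the shortest transcripts of the 10, and Apc, with the largest fold change, had the longest. The 10 genes had a median length of 4089 bases against 2690 for all genes tested, and none was in the 2 shortest of the 5 length groups. Glul (2758 bases) and Nkd1 (2566 bases), the genes below 0, were in the middle group, where the median of all genes was 0.0001. Ctnnb1, Axin1, Axin2 and Rnf43 were in the next, with a median of 0.035 over all its genes, and Apc, Lgr5, Tbx3 and Znrf3 in the longest, with 0.070. With the length term, the median of the 10 genes was 0.032 against -0.0036 over all genes, 8 remained above 0, and none was at an unadjusted p under 0.05 in edgeR, where 2.60% of genes lay higher. By gene, these fold changes ran from -0.050 for Nkd1 to 0.081 for Apc, and Znrf3, the second-longest transcript at 6792 bases, was at 0.017.

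**Figure D3:**
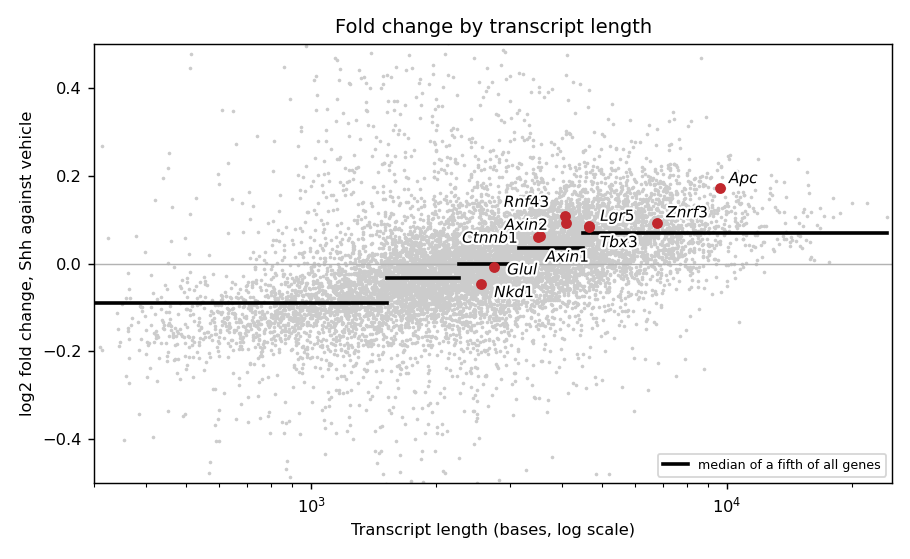
Log2 fold change of Shh against vehicle (edgeR) by transcript length (bases, log axis) for 11471 genes (grey; 146 lie outside the plotted range), the 10 Wnt genes (red) and the median of each of 5 equal groups by length (black lines). The medians climb from -0.090 to 0.070, and Glul and Nkd1, the shortest 2 of the 10, are the ones below 0.

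**Figure D4:**
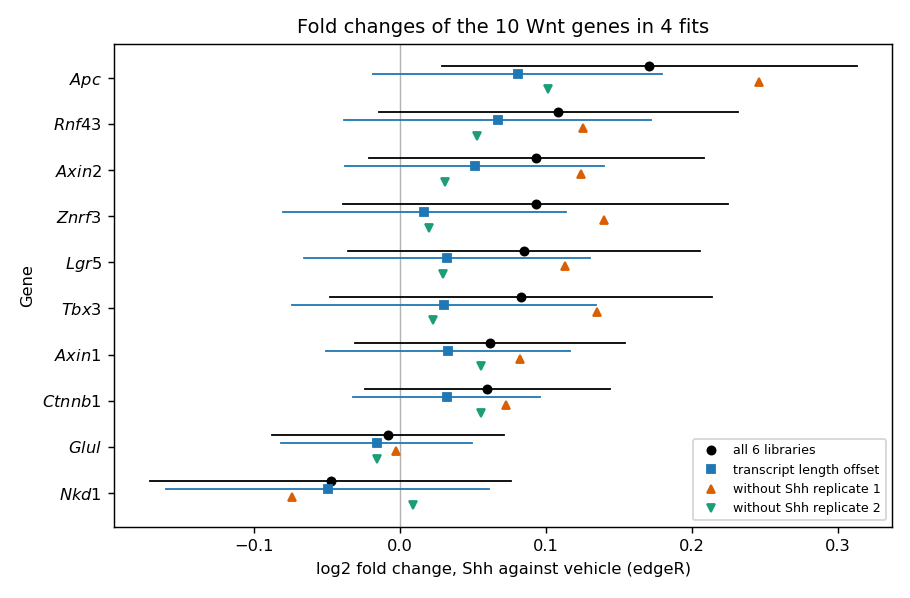
Log2 fold change (edgeR) of the 10 genes with all 6 libraries (black, 95% interval), with the length term (blue, 95% interval), without Shh replicate 1 (orange) and without Shh replicate 2 (green). The black interval includes 0 for every gene except Apc (0.029 to 0.31), and every blue interval includes 0.

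Beyond these 10 genes, 138 further genes of the pathway were listed by role, of which 135 had a row and 83 passed the expression filter. None passed the adjusted threshold in edgeR. The fold change was above 0 for 52 and below 0 for 31, with a median of 0.038 against 0.0028 over all genes, and with the length term the median was 0.0042 over the 76 genes with a known length. At an unadjusted p under 0.05, 8 lay higher (4.83% of all genes) and 2 lower (5.56%) in edgeR. Among the 83, 12 had all Shh libraries above all vehicle libraries (6.79% of all genes), and 2, Cby1 and Cyp27a1, had every Shh library below (8.67% of all genes).

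Few Wnt ligands passed the expression filter. Of 19, 17 had a row and 3 were tested: Wnt6 at 25.7 FPKM, Wnt10a at 18.8 FPKM and Wnt5a, which signals mainly without β-catenin, at 4.81 FPKM. The other 14 had reads in at least 1 library, and averaged 0.098 FPKM or less, the highest being Wnt7b, named after its values were seen. Wnt10a was at 32.2, 35.6 and 36.1 CPM with vehicle and at 37.6, 37.1 and 36.7 CPM with Shh, and Wnt5a at 24.0, 23.4 and 23.8 CPM against 25.6, 26.2 and 24.9 CPM. In these 2 genes every Shh library lay above every vehicle library (6.79% of all genes). Log2 fold changes were 0.10 (SE 0.056) and 0.11 (SE 0.055), with edgeR adjusted p-values of 0.529 and 0.504. Wnt6 was at 0.011 (edgeR adjusted p = 0.960). With the length term Wnt10a was at 0.13 (unadjusted p 0.0317, adjusted p 0.810 in edgeR). Wnt5a was then at 0.048 (unadjusted p 0.390 in edgeR) and Wnt6 at 0.033. In that fit 2.6% of 11471 genes lay higher at an unadjusted p under 0.05. Porcn, the acyltransferase that makes Wnts active, was at 1.58 FPKM, and Wls, which carries them to the surface, was at 0.11 FPKM and was not tested.

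Receptors were present in number, 13 of 17 being tested, and 12 of the 13 lay above 0 (median 0.080, and 0.044 with the length term over 12 genes, of which 7 were above 0). The most abundant were the co-receptor Lrp5 (33.7 FPKM) and Fzd10 (26.4 FPKM), with fold changes of 0.040 and -0.027. The other co-receptor, Lrp6, was at 112, 111 and 116 CPM with vehicle and at 117, 135 and 125 CPM with Shh, again with Shh replicate 2 the highest and no overlap. Its log2 fold change was 0.15 (SE 0.053, edgeR adjusted p = 0.469), and 0.065 with the length term. Fzd5 (0.14) and Fzd6 (0.13) had the next smallest p-values, and with the length term they were at 0.060 and 0.095. Of 20 R-spondins and secreted inhibitors with a row, 17 were too low to be tested, and the 3 tested were Kremen1 (4.07 FPKM, fold change 0.054), Sfrp2 (0.28 FPKM, -0.11) and Wif1 (0.21 FPKM, 0.53 with an SE of 0.40).

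Cytosolic transducers and partners of the destruction complex were broadly expressed, with 19 of 21 tested, 12 above 0 and 7 below (median 0.057, with the length term 0.019). The kinases were the most abundant, Gsk3a at 90.2 FPKM and Csnk1a1 at 78.7 FPKM, with fold changes of -0.034 and 0.083. Macf1, a very long cytoskeletal linker that binds Axin, was at 141, 136 and 141 CPM with vehicle and at 141, 167 and 155 CPM with Shh. Its log2 fold change was 0.15 (SE 0.056, edgeR adjusted p = 0.469), and 0.049 with the length term or 0.088 without Shh replicate 2. Without Shh replicate 1 its adjusted p was 0.0481 in edgeR, and 0.416 with the length term in that fit, so that this call was lost as well. Gsk3b and Csnk1g3 were both at 0.12, at unadjusted p-values of 0.0431 and 0.0459 in edgeR. With the length term they were at 0.038 and 0.072, and without Shh replicate 2 at 0.075 and 0.082.

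Of the nuclear partners of β-catenin, 19 of 20 were tested, with 12 above 0 and 7 below (median 0.057, with the length term -0.0015). The most abundant were Tle5 at 507 FPKM and Tcf7, a DNA-binding partner, at 34.6 FPKM, with fold changes of -0.045 and 0.0098. The co-activators Bcl9 (0.16) and Ep300 (0.12) lay above 0 and Cby1, a small antagonist of β-catenin, lay below it at -0.17 (SE 0.067), each with no overlap between groups and edgeR adjusted p-values of 0.469, 0.477 and 0.469. Cby1 is short (1069 bases) and Bcl9 and Ep300 are long (6074 and 8603 bases), and with the length term the values were -0.093, 0.094 and 0.036. Among the cadherin junction partners, which hold a separate pool of β-catenin at the membrane, Ctnna1 was at 99.8 FPKM (fold change 0.034), Jup at 62.6 FPKM (-0.021) and Ctnnd1 was at 0.077, while the classical epithelial cadherin Cdh1 was at only 0.12 FPKM.

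The pericentral liver genes formed the list with the lowest median. Of 12, 9 were tested, 1 was above 0 and 8 were below. The median was -0.087 against 0.0028 over all genes, and -0.040 over 7 genes with the length term. At an unadjusted p under 0.05 in edgeR, 1 of the 9 lay lower and 0 higher. With the length term, 1 of the 7 was above 0, and 2 were at that p, 0 of them higher. Over all genes 697 of 11471 were at that p with the length term. Cyp27a1, a bile acid synthesis enzyme, was at 15.5, 16.6 and 15.1 CPM with vehicle and at 14.3, 13.7 and 12.9 CPM with Shh, with no overlap. Its log2 fold change was -0.21 (SE 0.073, edgeR adjusted p = 0.469), and -0.18 with the length term. Lect2, a secreted hepatocyte factor (75.4 FPKM), was at -0.12, Tnfrsf19 at -0.15 and Oat, which makes glutamate from ornithine (62.0 FPKM), at -0.068. With the length term these 3 were at -0.024, -0.20 and -0.052. The tested genes of the list had a median length of 1917 bases, against 2690 for all genes tested. Without Shh replicate 1 the median of the list was -0.11. In that fit 1 gene of the list, Cyp2e1 (named after its values were seen), passed the adjusted threshold in edgeR, as did 195 of 12391 genes. Glul, the most abundant pericentral target at 91.0 FPKM, was at -0.0082, as given above.

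**Figure D5:**
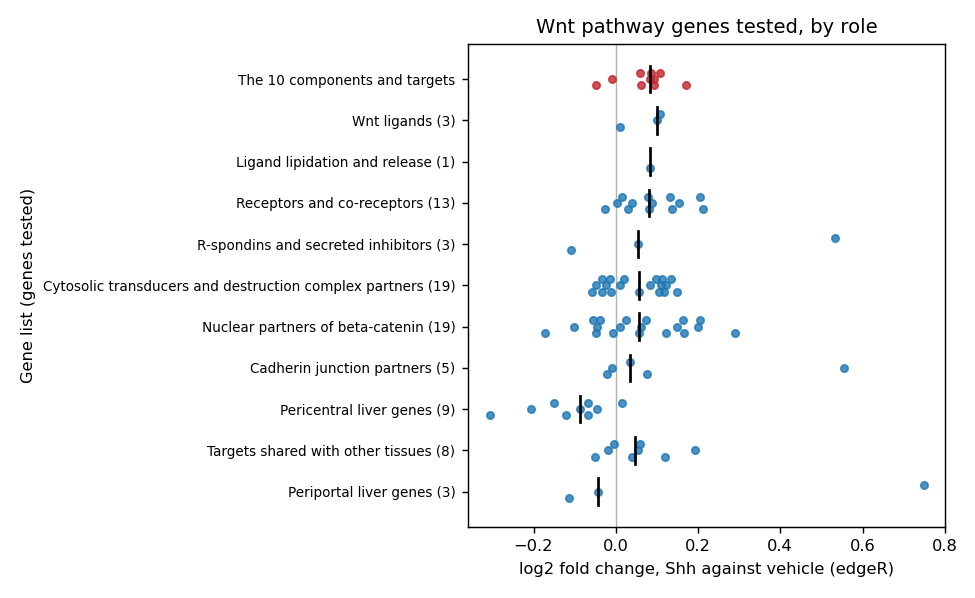
Log2 fold changes of Shh against vehicle (edgeR) of the 10 genes (red) and of the tested genes of 10 further role lists (blue, number tested in parentheses), with the median of each list as a black tick. The medians lie between -0.087 for pericentral liver genes and 0.10 for Wnt ligands, and no gene passed the adjusted threshold.

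Targets that β-catenin shares across tissues were abundant, with Ccnd1, a driver of the cell cycle, at 254 FPKM and the mitotic survival gene Birc5 at 196 FPKM. Of 11, 8 were tested, 5 were above 0 and 3 below (median 0.047). Ccnd1 was at 0.055 and Birc5 at -0.049, and Jag1, a Notch ligand, was at 0.12 (edgeR adjusted p = 0.558) and at 0.0082 without Shh replicate 2. Most periportal genes were close to 0 FPKM, 3 of 10 being tested. Ass1, a urea cycle enzyme, was at -0.044 and Gls2, which splits glutamine, at -0.11. Pck1, of gluconeogenesis, was at 1.90, 2.19 and 1.83 CPM with vehicle and at 6.48, 1.93 and 1.57 CPM with Shh, so that its fold change of 0.75 (SE 0.44, edgeR adjusted p = 0.541) came with 1 high library, Shh replicate 1.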

How the data were processed

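RNA of 6 Hepa 1-6 libraries (3 vehicle, 3 Shh) was enriched for poly(A) and sequenced by the authors. For each gene the authors deposited an estimated count (36.4% of values above 0 were not whole) and FPKM, scaled by the authors to transcript length and library total. The submitters' processing notes name Bowtie2; neither its version nor counting tool, build or annotation is stated in what was used here. Strand was not stated, so that antisense reads cannot be told apart. The design text speaks of liver exosomes, whereas the cell line named by labels and paper was taken. A further 6 columns of per-sample values, and 6 of group means, were not used.

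After rounding, counts were tested with edgeR 4.0.16 under R 4.3.3 (TMM, expression filter with minimum count 10 and minimum total 15, quasi-likelihood test, group as single term, adjusted p under 0.05). DESeq2 1.42.0, upper-quartile factors, other filters, a replicate block, a length term and leaving out each library were alternatives, as was an unadjusted threshold. The length term was a spline with 5 degrees of freedom per library over the length recovered from counts and FPKM (FPKM at least 0.5). The fit was tested on simulated data. Same-numbered libraries had correlations of deviations of -0.030, -0.067 and 0.12. No pairing by number was seen, although 3 libraries a group are too few to exclude it. The 10 genes and all lists were chosen with earlier results of these data known. By rule, genes could be named beside the 10 if, in a pathway list, they were among the 3 tested genes with the smallest p or the 2 with the highest FPKM, or, in a marker list, among the 2 with the highest FPKM or at 0 in every library.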

Additional observations from a re-analysis of the deposited data

How the results depend on the processing

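None of the 10 genes passed the adjusted threshold with DESeq2, upper-quartile factors, no filter, the filter of 5 CPM in 3 libraries, the length term or the replicate block. Leaving out each library in turn gave 0 to 1 calls among the 10, the 1 being Apc without Shh replicate 1 (log2 fold change 0.25, edgeR adjusted p = 0.0462). Among the 83 further genes it gave 0 to 2 calls. The 2 were Macf1 and the pericentral gene Cyp2e1 (named after its values were seen), without the same library. Over all genes that exclusion gave 195 calls where 0 stood with every library, and the cause was not tested. At the unadjusted threshold 1 of the 10 and 10 of the 83 were counted. The 1 gene of the 10 at an unadjusted p under 0.05 became 0 with the length term, alone or with the replicate block. It was also 0 with the length term without Shh replicate 2. With the length term without Shh replicate 1 it stayed 1, Apc (unadjusted p 0.0160 in edgeR). In that fit 1414 of 11505 genes were at that p. With each library left out in turn and no length term, the count ran from 0 to 4. The 4 (Apc, Axin2, Tbx3 and Znrf3) were those without Shh replicate 1, where 2610 of 12391 genes were at that p, and without Shh replicate 3 the 1 gene was Rnf43 in place of Apc. The count was 0 without vehicle replicate 1, without vehicle replicate 2 and without Shh replicate 2.

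The median log2 fold change of the 10 genes was above 0 under each of these alternatives and in both fits that combine the length term with a left-out library. It was 0.083 with the replicate block and 0.032 with the length term. Without Shh replicate 2 it was 0.030, and with the length term as well 0.0061. Of 150 alternative values of single genes, 145 kept their direction and side of the threshold and 4 changed sign, each without Shh replicate 2. Leaving out each library, Nkd1 ran from -0.080 to 0.0087, the latter without Shh replicate 2, and with the length term also in that fit Nkd1 was at 0.0018, Tbx3 at -0.0042 and Znrf3 at -0.018. The fits that combine the length term with leaving out Shh replicate 1 or 2 were added after the data were seen. With 3 numbered libraries a group, some libraries correlated better with another number than with theirs, and the fit with the replicate block called 0 of all genes. No gene of the 10 was under the expression filter, so the planned test of such genes gave no value.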
